A study of Mus musculus with 6 samples.

Results

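The 9 genes studied here mark the primed epiblast and were followed in mouse E14 embryonic stem cells exposed to a histone deacetylase inhibitor. They are the secreted growth factor gene Fgf5, the transcription factor genes Otx2, Foxd3, Zic2, Zic5, Pou3f1, Sox3 and Sall2, and the adhesion gene Cdh2. They were chosen by name, with earlier results of these data known. All 9 were measured among the 19938 genes tested, each by the brightest probeset whose annotation gave its symbol alone. The groups were 2 samples exposed to 0.5 mM valproic acid (VPA), 2 exposed to 0.2 mM sodium butyrate (NaBu) and 2 left untreated, and every group was collected at 16 h. All samples were of the E14 line, grown with leukemia inhibitory factor and serum on primary fibroblasts whose division had been blocked with mitomycin C. RNA of each sample went to 1 Affymetrix array, so each group has a replicate 1 and a replicate 2, and values are log2 expression. The labels do not say whether the replicates were separate cultures, so each interval and p-value measures the spread between arrays only.

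Naive pluripotency is the state of the inner cell mass before implantation, which leukemia inhibitory factor helps to hold in culture. After implantation the epiblast enters the primed state, in which FGF and Nodal signals are active and Otx2, Fgf5 and Pou3f1 become abundant while the naive factors are lost. Several primed markers, among them Zic2, Sox3 and Cdh2, are also used later by neural progenitors. VPA and butyrate are both short-chain fatty acids that inhibit histone deacetylases. The carbon chain is branched in VPA and straight in butyrate.

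The arrays carried the defining transcripts of embryonic stem cells. Pou5f1, which encodes Oct4, had log2 values of 11.12 and 11.13 with VPA, 11.68 and 11.56 with NaBu and 11.90 and 11.63 in untreated cells. Nanog stood between 10.79 and 11.70 and Sox2 between 11.11 and 11.63 on the 6 arrays, against medians of all genes between 5.71 and 5.79. Arrays of the same number resembled each other across groups. After the mean of each group was taken away, same-numbered arrays correlated across genes at r = 0.567 for VPA and NaBu, 0.558 for VPA and untreated, and 0.693 for NaBu and untreated cells. The difference within replicate set 1 (the arrays numbered 1) and within replicate set 2 (those numbered 2) is therefore given for each marker, and limma was also run with the replicate number as a block. Feeder fibroblast genes were higher in replicate 2 than in replicate 1 for 14 of 17 markers with VPA, 15 of 17 with NaBu and 14 of 17 in untreated cells. Of all 19938 genes, 9369, 10788 and 9915 were higher in replicate 2, in the same order of groups. The log2 of the summed level of the feeder genes was 10.75 and 11.93 with VPA, 11.05 and 12.11 with NaBu and 10.90 and 11.77 in untreated cells.

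With VPA, 4 of the 9 markers stood lower than in untreated cells in both replicate sets, and these were the transcription factors Otx2, Foxd3, Zic2 and Zic5. Of all genes tested, 28.0% were lower with VPA in both sets. After quantile normalization 7 of the 9 markers and 30.4% of all genes were lower in both sets, and after median centring 6 of the 9 and 35.3% of all genes. With NaBu the mean differences of the 9 markers lay between -0.39 and 0.02 on the log2 scale. None of the 9 passed an adjusted p of 0.05 in limma in any comparison, and neither did any other gene. The share of all genes called was 0.0% for VPA against untreated, 0.0% for NaBu against untreated and 0.0% for VPA against NaBu, with 981, 311 and 724 genes in that order at an unadjusted p under 0.05. With the replicate block the shares were also 0.0%, with 2636, 916 and 2150 genes at an unadjusted p under 0.05. The design has 2 arrays per group, and the differences below are therefore values with intervals and not calls.

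**Figure D1:**
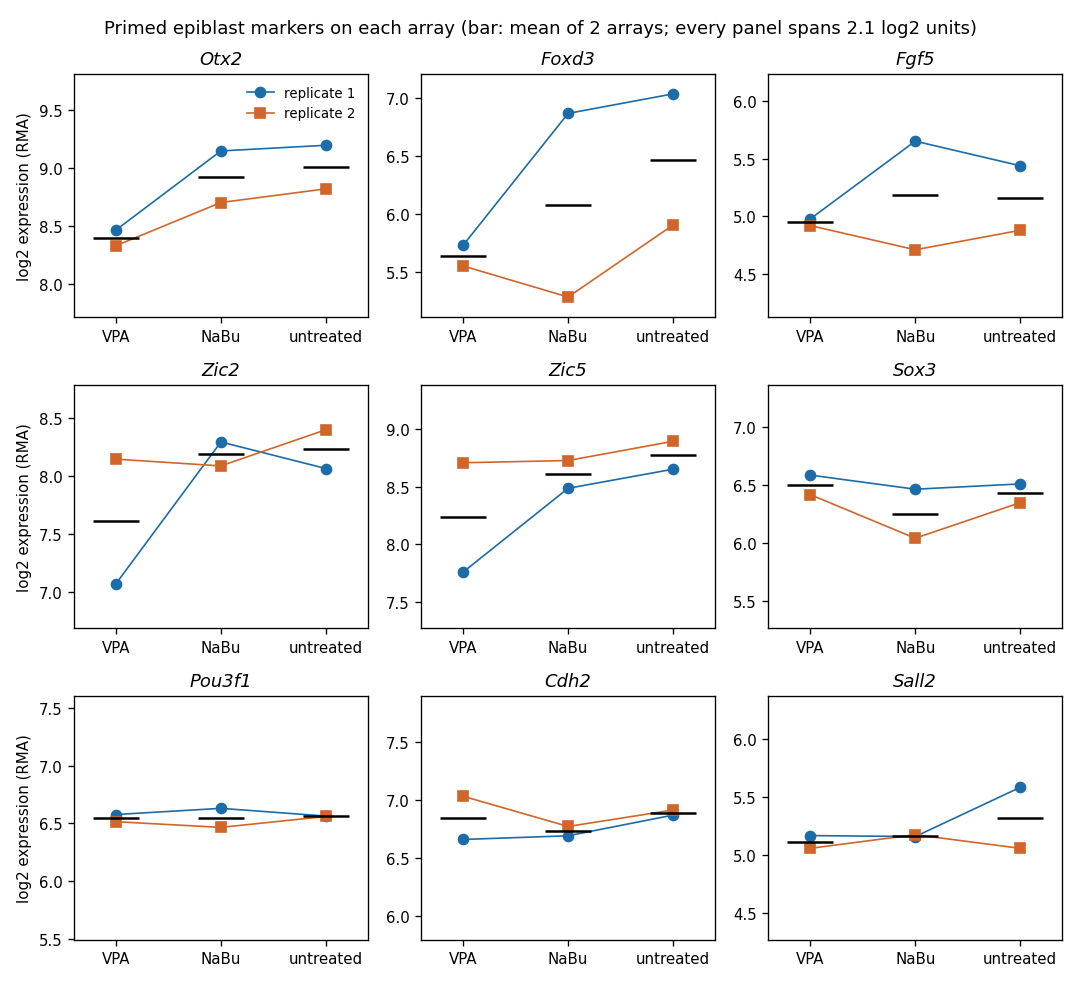
Log2 expression of each of the 9 markers (vertical axis, RMA units) on the 6 arrays, by group (VPA, NaBu, untreated); circles are replicate 1, squares are replicate 2, lines join arrays of the same number, and bars are means of 2 arrays. Otx2 sits between 8.33 and 8.46 on the VPA arrays, below all 4 other arrays, whereas Zic2 and Zic5 are low on the array of VPA replicate 1.

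Otx2 encodes a homeodomain transcription factor that in mouse helps to move cells out of the naive state and later patterns the forebrain. Its log2 value was 8.46 and 8.33 with VPA, 9.15 and 8.70 with NaBu and 9.19 and 8.82 in untreated cells. Both VPA arrays lay below every NaBu and untreated array, and the NaBu and untreated arrays overlapped. Of all genes, 15.6% had both VPA arrays below both untreated arrays. The mean was 8.40 ± 0.10 with VPA and 9.01 ± 0.27 in untreated cells (SD, n = 2 each). The log2 difference was -0.61 (95% interval -1.10 to -0.13, limma adjusted p 0.964), which is a ratio of 0.655. It was -0.73 in set 1 and -0.49 in set 2. With the replicate block the 95% interval was -0.89 to -0.33 (limma adjusted p 0.201). NaBu stood at -0.08 against untreated cells (95% interval -0.57 to 0.40), with -0.05 in set 1 and -0.12 in set 2, and was 0.10 without untreated replicate 1 and 0.14 without NaBu replicate 2. Pou5f1 had a log2 difference of -0.64 with VPA (95% interval -0.97 to -0.31), beside the -0.61 of Otx2.

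Foxd3 encodes a forkhead transcription factor of the epiblast and, later, of the neural crest. Its log2 value was 5.73 and 5.55 with VPA, 6.87 and 5.28 with NaBu and 7.03 and 5.90 in untreated cells. Both VPA arrays lay below both untreated arrays, as in 15.6% of all genes, but NaBu replicate 2 was the lowest of the 6 arrays. The log2 difference of VPA from untreated cells was -0.83 (95% interval -2.19 to 0.53, limma adjusted p 0.964), with -1.30 in set 1 and -0.35 in set 2. It was -0.26 without untreated replicate 1 and -1.40 without untreated replicate 2. With the block the interval was -1.46 to -0.20 (limma adjusted p 0.276). NaBu stood at -0.39 (95% interval -1.76 to 0.97), with -0.17 in set 1 and -0.62 in set 2. This mean was 0.40 without NaBu replicate 2, 0.17 without untreated replicate 1, -0.96 without untreated replicate 2 and -1.19 without NaBu replicate 1. Part of the difference between replicates enters these values, whereas both sets, which compare same-numbered arrays, lay below 0.

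The Zic genes encode zinc finger transcription factors of the epiblast and the neural plate. Zic2 and Zic5 are neighbours on chromosome 14, with 1 long noncoding RNA gene between them in RefSeq. Zic2 had log2 values of 7.07 and 8.14 with VPA, 8.29 and 8.09 with NaBu and 8.06 and 8.40 in untreated cells. Zic5 had 7.76 and 8.71 with VPA, 8.48 and 8.72 with NaBu and 8.65 and 8.89 in untreated cells. In both genes VPA replicate 1 was the lowest array, and VPA replicate 2 lay among the arrays of the other groups. The log2 difference of VPA from untreated cells was -0.62 for Zic2 (95% interval -1.45 to 0.20, limma adjusted p 0.964), with -0.99 in set 1 and -0.25 in set 2. For Zic5 it was -0.54 (95% interval -1.27 to 0.20, limma adjusted p 0.964), with -0.89 in set 1 and -0.18 in set 2. Without VPA replicate 1 the differences were -0.09 for Zic2 and -0.06 for Zic5. Without VPA replicate 2 they were -1.16 and -1.01 in the same order. With the block the intervals were -1.20 to -0.05 for Zic2 and -0.95 to -0.13 for Zic5, at limma adjusted p-values of 0.341 and 0.276.

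Zic5 was the only marker of the 9 with a second probeset, and the pair gave different sizes. The probeset used here, 10376241, gave the values above and underlies the Zic5 counts in the text, except where both probesets are averaged. The other probesets of markers on chromosome 14 are numbered from 10417176 (Zic2) to 10422504 (the dimmer Zic5 one), and 10376241 lies outside that range. The annotation gives no positions for the probesets, and whether both read the Zic5 locus was not tested. The dimmer one, 10422504, had 6.06 and 6.44 with VPA, 6.43 and 6.35 with NaBu and 6.18 and 6.71 in untreated cells. Its log2 difference of VPA from untreated cells was -0.19, with -0.11 in set 1 and -0.27 in set 2. The low value of VPA replicate 1 was less marked in the dimmer probeset, and both probesets lay below 0 in both sets. With NaBu, Zic2 stood at -0.04 (95% interval -0.87 to 0.78) and Zic5 at -0.17 (95% interval -0.90 to 0.57). The Zic2 value was 0.13 without untreated replicate 2 and 0.062 without NaBu replicate 2. The Zic5 value was -0.045 without untreated replicate 2 or NaBu replicate 1 and -0.29 without untreated replicate 1 or NaBu replicate 2. For NaBu the dimmer Zic5 probeset gave 0.25 in set 1 and -0.36 in set 2, against -0.16 and -0.17 for the one used.

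The stretches of 250 bases before the annotated transcription start of Otx2, Foxd3 and Zic5 are shown because these 3 genes stood lower with VPA in both sets and have an entry in the RefSeq promoter table. Sequences run 5′ to 3′ on the strand of the gene in GRCm38.p6. They come from chr14:48667645-48667894 (minus strand) for the most upstream of 4 starts of Otx2, chr14:48665110-48665359 (minus strand) for start 3, chr4:99656049-99656298 (plus strand) for Foxd3 and chr14:122465659-122465908 (minus strand) for Zic5. Capitals mark matches to the motifs named after them.
Otx2 start 1: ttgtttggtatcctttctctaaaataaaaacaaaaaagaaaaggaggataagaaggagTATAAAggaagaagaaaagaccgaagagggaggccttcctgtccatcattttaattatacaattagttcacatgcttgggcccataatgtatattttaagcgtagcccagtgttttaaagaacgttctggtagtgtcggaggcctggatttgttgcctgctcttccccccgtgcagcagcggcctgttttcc
Otx2 start 3: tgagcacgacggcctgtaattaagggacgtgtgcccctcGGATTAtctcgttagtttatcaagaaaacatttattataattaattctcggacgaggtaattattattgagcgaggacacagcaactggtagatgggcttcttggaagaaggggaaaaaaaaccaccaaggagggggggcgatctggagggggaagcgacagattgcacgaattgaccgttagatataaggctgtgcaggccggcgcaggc
Foxd3: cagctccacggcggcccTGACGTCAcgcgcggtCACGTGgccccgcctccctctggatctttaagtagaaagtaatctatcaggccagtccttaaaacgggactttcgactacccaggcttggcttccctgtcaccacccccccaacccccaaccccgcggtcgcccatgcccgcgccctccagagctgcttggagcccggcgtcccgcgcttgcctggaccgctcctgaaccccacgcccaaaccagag
Zic5: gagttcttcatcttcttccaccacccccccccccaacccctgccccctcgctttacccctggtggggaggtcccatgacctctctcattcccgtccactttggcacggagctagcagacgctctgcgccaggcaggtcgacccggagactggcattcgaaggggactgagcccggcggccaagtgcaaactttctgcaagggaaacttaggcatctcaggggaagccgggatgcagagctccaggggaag

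Both strands were searched for 7 motifs, the octamer ATGCAAAT of POU factors, the cAMP response element TGACGTCA, the E-box CACGTG, the TATA box TATAAA, the GC box GGGCGG, the CCAAT box CCAAT and the Otx site TAATCC. The Foxd3 window held the cAMP response element and an E-box, which 1.55% and 6.02% of 32851 windows of the same length hold. No 2 matches overlapped in the windows shown. The Otx site, bound by Otx proteins, was found on the opposite strand of the third Otx2 window, alone among the 4 searched. It is held by 6.25% of windows, which is a share per single window. In the Otx2 windows not shown, the second held a CCAAT box, as do 33.8% of windows, and the fourth held no match. The first Otx2 window held TATAAA at 192 bases before the start, as do 12.4% of windows at any place. No letters of the 7 motifs were in the Zic5 window. GC content was 42.0% for the first Otx2 window, 48.4% for the third, 65.6% for Foxd3 and 62.4% for Zic5. The array does not tell the 4 starts of Otx2 apart, and a match describes letters only.

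Fgf5 encodes a secreted fibroblast growth factor that appears in the epiblast around implantation and is widely used as a marker of the primed state. Its log2 value was 4.98 and 4.92 with VPA, 5.65 and 4.71 with NaBu and 5.44 and 4.88 in untreated cells. All 6 values lay below the median of all genes on their array. Replicate 1 was above replicate 2 in every group, by 0.94 with NaBu and 0.56 in untreated cells but by 0.06 with VPA. The log2 difference of VPA from untreated cells was -0.21 (95% interval -1.0 to 0.58), with -0.46 in set 1 and 0.04 in set 2, and it was 0.07 without untreated replicate 1 and -0.49 without untreated replicate 2. NaBu stood at 0.02 (95% interval -0.77 to 0.81), with 0.21 in set 1 and -0.17 in set 2.

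Pou3f1, which encodes the POU factor Oct6, varied least of the 9. Its log2 value was 6.58 and 6.52 with VPA, 6.63 and 6.47 with NaBu and 6.56 and 6.56 in untreated cells. The difference was -0.02 with VPA (95% interval -0.30 to 0.27) and -0.01 with NaBu (95% interval -0.30 to 0.27). Sox3 belongs with Sox2 to the SoxB1 factors of epiblast and neural cells. It had 6.59 and 6.42 with VPA, 6.47 and 6.04 with NaBu and 6.51 and 6.35 in untreated cells. Sox3 was the only marker of the 9 with a mean above the untreated one with VPA, at 0.07 (95% interval -0.35 to 0.49), and it stood at -0.18 with NaBu (95% interval -0.60 to 0.24). Without NaBu replicate 2 the NaBu value was 0.04, and without NaBu replicate 1 it was -0.39.

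Sall2 encodes a zinc finger factor of the spalt family and was dim, like Fgf5. Its log2 value was 5.17 and 5.06 with VPA, 5.16 and 5.18 with NaBu and 5.58 and 5.06 in untreated cells. Untreated replicate 1 stood above the other 5 arrays, and without it the VPA difference was 0.06 in place of -0.21 (95% interval -0.66 to 0.24). Cdh2 encodes N-cadherin, an adhesion molecule that epiblast cells gain on the way to mesoderm or neural fate and that fibroblasts also express. It had 6.66 and 7.03 with VPA, 6.69 and 6.77 with NaBu and 6.87 and 6.91 in untreated cells. Both NaBu arrays lay below both untreated ones, as in 11.2% of all genes, and the log2 difference was -0.16 (95% interval -0.53 to 0.21). For VPA it was -0.05 (95% interval -0.41 to 0.32), with -0.21 in set 1 and 0.12 in set 2. The feeder fibroblast markers had a median log2 difference of 0.17 with NaBu, with 15 of 17 above 0, and of 0.04 with VPA, with 10 of 17 above 0. Of all 19938 genes, 10829 lay above 0 with NaBu and 10567 with VPA. The part of the feeder markers in the Cdh2 values was not tested.

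**Figure D2:**
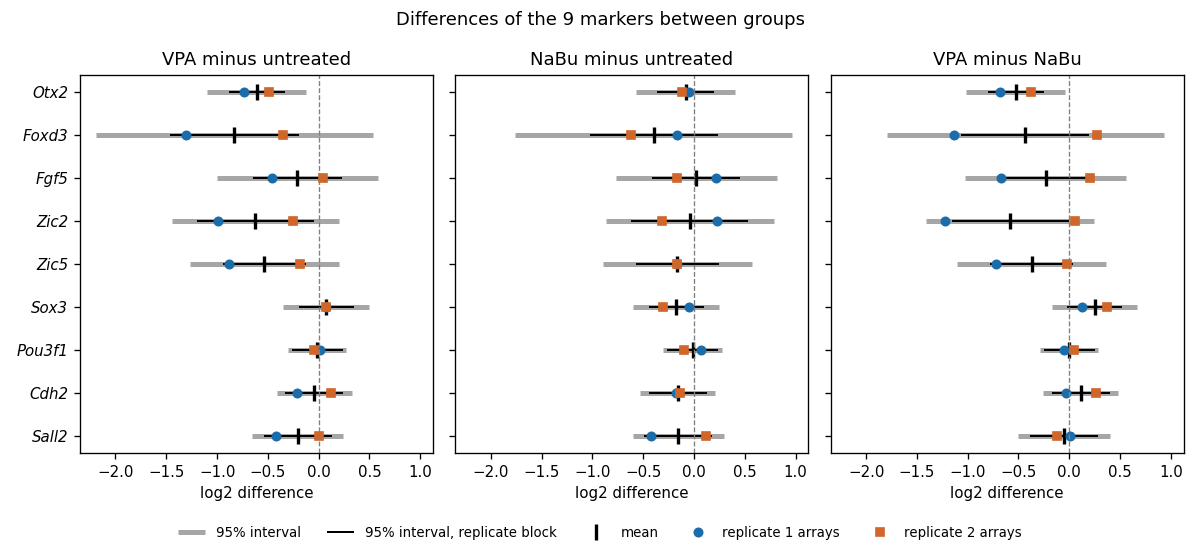
Log2 difference (horizontal axis) of each marker for VPA minus untreated, NaBu minus untreated and VPA minus NaBu. Vertical ticks are means, circles and squares the differences of replicate 1 and replicate 2 arrays, grey bars the 95% intervals of limma and thin black bars those with the replicate block. The grey bar of Otx2 lies below 0 for VPA, from -1.10 to -0.13, and for VPA minus NaBu, from -1.01 to -0.04, and the other 25 grey bars cross 0.

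Seen as a group, 8 of the 9 markers had a mean below 0 with VPA and 8 of 9 with NaBu, against 47.0% and 45.7% of all genes. The markers were chosen with earlier results of these data known, so such shares describe them and are no test. The VPA and NaBu comparisons share their untreated arrays. The median log2 difference of the 9 was -0.21 with VPA and -0.15 with NaBu, and the medians over all genes were 0.01 and 0.01. For VPA the median was -0.46 in set 1 and -0.05 in set 2, and it was -0.07 without untreated replicate 1, -0.09 without VPA replicate 1 and -0.46 without untreated replicate 2. For NaBu the set medians were -0.05 and -0.17, and the pooled value was -0.01 without untreated replicate 1, -0.26 without untreated replicate 2 and 0.06 without NaBu replicate 2. The markers below 0 in both sets numbered 5 with NaBu, namely Otx2, Foxd3, Zic5, Sox3 and Cdh2, against 23.1% of all genes. With the replicate block 4 of 9 markers were lower with VPA at an unadjusted limma p under 0.05, against 6.01% of all genes lower at that p. Those 4 were Otx2, Foxd3, Zic2 and Zic5, none of which passed the adjusted p in limma. For NaBu 0 of 9 had such a p in either direction, and 2.2% of all genes were lower at that p. Counted in either direction, 2636 of 19938 genes had such a p for VPA and 916 for NaBu. In bulk RNA a lower value can stand for fewer cells that express a gene or for less RNA per cell, and these cannot be told apart.

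The compounds were compared with each other at unequal doses, 0.5 mM for VPA and 0.2 mM for NaBu, so the values describe these 2 treatments and not the 2 structures at a matched dose. In the model without the block, Otx2 had the difference of VPA from NaBu whose interval lay below 0, at -0.53 (95% interval -1.01 to -0.04, limma adjusted p 0.998), with -0.68 in set 1 and -0.37 in set 2. Both VPA arrays lay below both NaBu arrays, as in 14.6% of all genes. The Otx2 difference was -0.30 without NaBu replicate 1. With the block its interval was -0.80 to -0.25 (limma adjusted p 0.362). Zic2 stood at -0.58 (95% interval -1.41 to 0.24), with -1.22 in set 1 and 0.06 in set 2. It was -0.045 without VPA replicate 1 and -1.12 without VPA replicate 2, and with the block its interval was -1.16 to -0.0042 (limma adjusted p 0.461). Foxd3 stood at -0.43 (95% interval -1.80 to 0.93) and Zic5 at -0.37 (95% interval -1.10 to 0.36). Foxd3 also had opposite signs in the sets, with -1.14 in set 1 and 0.27 in set 2, and was 0.36 without NaBu replicate 1 and -1.23 without NaBu replicate 2. Zic5 was 0.10 without VPA replicate 1 and -0.84 without VPA replicate 2. Sox3 stood at 0.25 (95% interval -0.17 to 0.67), above 0 in both sets, and was 0.037 without NaBu replicate 2, 0.16 without VPA replicate 1 and 0.46 without NaBu replicate 1. Otx2 and Zic5 were the 2 markers lower with VPA than with NaBu in both sets, against 28.6% of all genes.

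The 2 arrays of a group differed for several markers as much as the groups did. Foxd3 was lower in replicate 2 by 0.18 with VPA, by 1.58 with NaBu and by 1.13 in untreated cells. Otx2 was lower in replicate 2 by 0.14 with VPA, by 0.45 with NaBu and by 0.38 in untreated cells. Zic5 ran the other way, higher in replicate 2 by 0.94 with VPA, 0.24 with NaBu and 0.24 in untreated cells. Of the 9 markers, 5 were lower in replicate 2 in every group (Fgf5, Otx2, Pou3f1, Foxd3 and Sox3) and 2 were higher in every group (Zic5 and Cdh2). Of all genes, 23.5% were lower and 23.2% were higher in replicate 2 in every group. For Otx2, Foxd3 and Fgf5 the gap between replicates was smallest with VPA, and for Zic2, Zic5 and Cdh2 it was largest with VPA. The feeder markers were higher in replicate 2 by a median of 0.62 with VPA, 0.46 with NaBu and 0.41 in untreated cells. The lowest of the 17 feeder markers, Fap or Lum, stood between 2.67 and 3.22 on every array, and log2 array values have no true 0. The part of feeder RNA in the replicate differences was not tested.

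**Figure D3:**
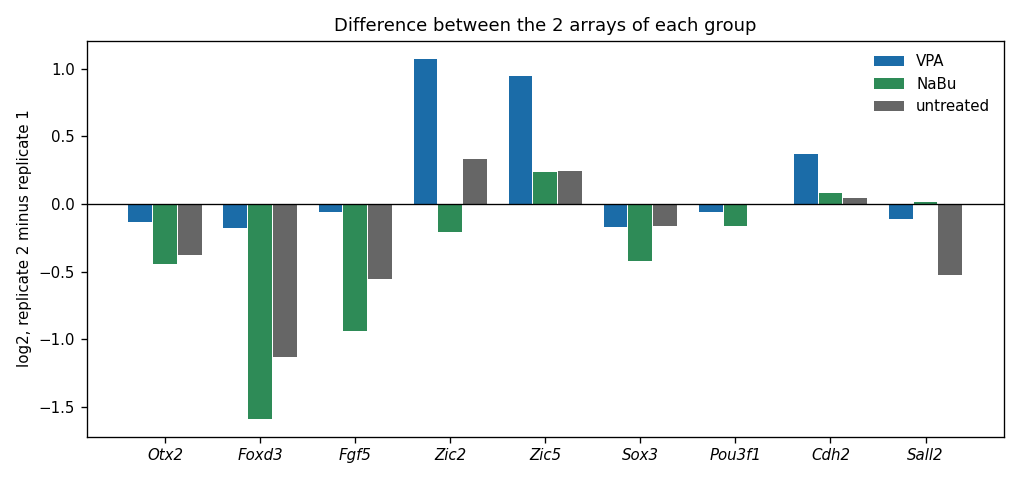
Log2 expression of replicate 2 minus replicate 1 (vertical axis) for each marker in the VPA, NaBu and untreated groups; each bar is a difference of 2 single arrays, with no error. Foxd3 reaches -1.58 with NaBu and -1.13 in untreated cells but -0.18 with VPA, whereas Zic2 and Zic5 reach 1.07 and 0.94 with VPA.

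Other genes of the primed or formative epiblast lay on both sides of 0 with VPA. Of 22 listed genes 21 were measured, with 12 below and 9 above 0 for VPA and a median of -0.02, and none passed in limma. Of all genes, 47.0% were below 0 with VPA. Fgf15, a growth factor of the epiblast and neural tube, had log2 values of 7.06 and 7.09 with VPA, 7.91 and 7.67 with NaBu and 8.0 and 7.58 in untreated cells. Both VPA arrays lay below the other 4, and the log2 difference from untreated cells was -0.71 (95% interval -1.13 to -0.29). Cldn6, a tight junction gene of early epithelia, lay on the other side, with 9.35 and 9.11 with VPA, 8.26 and 8.85 with NaBu and 8.0 and 8.76 in untreated cells. Its difference with VPA was 0.85 (95% interval 0.12 to 1.58), with 1.35 in set 1 and 0.35 in set 2. Dusp6, a phosphatase that dampens ERK signalling, stood at 0.33 with VPA (95% interval 0.05 to 0.61). Of the others, the differences farthest from 0 with VPA were -1.18 for Enpp3, -0.70 for Car14, -0.57 for Tcf7l1 and 0.51 for Krt18, 4 genes picked after their values were seen. With NaBu 16 of the 21 lay above 0 and 5 below, against 45.7% of all genes below 0, and the median was 0.09. Sox11 stood at 0.22, Etv4 at 0.17 and the DNA methyltransferase Dnmt3a at 0.14. Enpp3, the farthest from 0 with NaBu, stood at -0.25 and Car14 at -0.18.

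**Figure D4:**
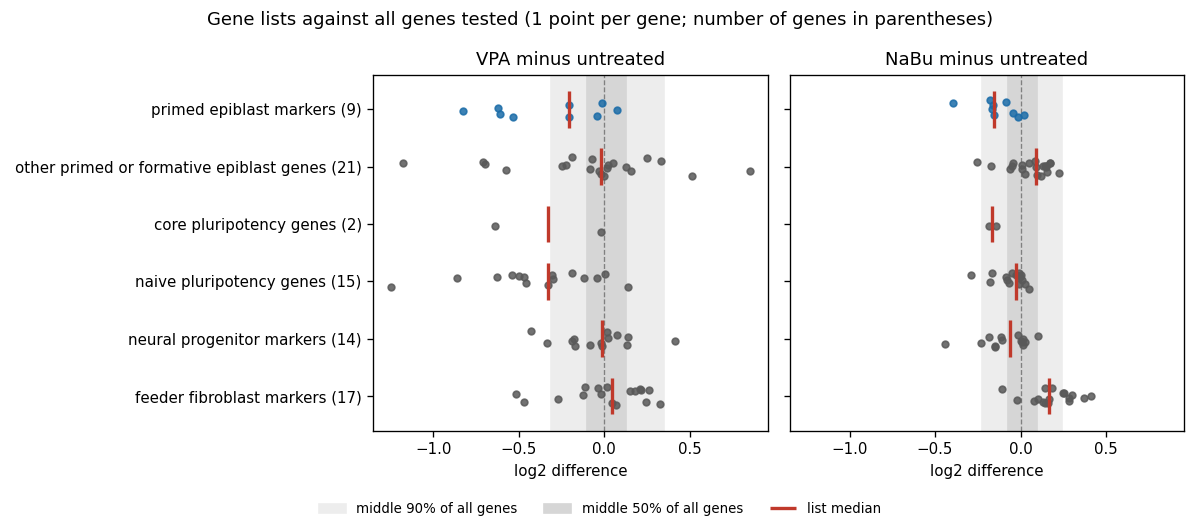
Log2 difference from untreated cells (horizontal axis) for VPA and NaBu; each point is 1 gene of a list, red bars are list medians, and shaded bands hold the middle 50% and 90% of all genes tested. With VPA the median of the 9 primed epiblast markers is -0.21, that of the 15 naive genes is -0.33 and that of the 21 other primed or formative genes is -0.02.

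Naive pluripotency genes were read beside the primed markers. With VPA 13 of 15 measured were below 0, against 47.0% of all genes, and 11 were lower in both sets, against 28.0%. The median of the 15 was -0.33, with -0.52 in set 1 and -0.29 in set 2. Prdm14 stood at -1.25, Nr0b1 at -0.62, Tbx3 at -0.47, Zfp42 at -0.31 and Esrrb at -0.30. With NaBu 11 of the 15 were below 0, against 45.7% of all genes, and 4 were lower in both sets, against 23.1%. The NaBu median of the 15 was -0.02. Neural progenitor genes, which share Sox and Zic family members with the primed epiblast, had a median of -0.02 with VPA over 14 measured and of -0.06 with NaBu. No gene of either list passed in limma, and the difference between the lists was not tested.

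The genes whose profile over the 6 arrays was nearest to that of Otx2 were Enah, Cbr3 and Ino80, at root mean square differences of 0.0535, 0.0549 and 0.0585 log2 units after each gene was centred on its own mean. Enah, which encodes an actin regulator, had 9.23 and 8.96 with VPA, 9.88 and 9.36 with NaBu and 9.90 and 9.44 in untreated cells. For Fgf5 the nearest were 1810037I17Rik, Tnfaip6 and Gm10778, at 0.0635, 0.0727 and 0.0814. These are the closest of 19938 genes on 6 arrays and describe likeness of values only.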

How the data were processed

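Arrays of 6 samples were used, 2 per group. The deposited values are log2 expression per probeset, which the authors made, per the submitters' processing notes, with RMA (Affymetrix Expression Console, version 1.1). The sources used here name neither RMA settings nor a genome build. Of 35556 probesets, 21789 carried 1 gene symbol in the platform annotation, 1621 carried several and 12146 were not listed; the last 2 kinds were not used. Where a gene had several such probesets (999 genes), the one with the highest mean was taken, giving 19938 genes. RefSeq GRCm38.p6 supplied promoter windows and gene order.

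The test was limma 3.58.1 (lmFit and eBayes, R 4.3.3) over all 6 arrays, with Benjamini-Hochberg adjustment over all genes and 3 residual degrees of freedom (2 with the replicate block). RMA pulls arrays to a common distribution, so a shift of all genes would not be seen, and the number of arrays limits the precision. An exact permutation test of 2 against 2 arrays cannot go below p = 0.333, so none was used. The replicate pairing was read from the deposited values, not from the labels. The members and lists were chosen with earlier results of these data known. The genes set for naming were the 9 markers and, from each other list, the 3 with the largest absolute moderated statistic for each compound. To these were added 5 pluripotency genes and the 3 profiles nearest to Otx2 and to Fgf5. Not all of these appear in the text, and Enpp3, Car14, Tcf7l1 and Krt18 were named outside this rule. The procedure was also run on simulated data, with the spread of the block model and shifts larger than any mean marker difference here. That run does not show how well differences of the size seen here would be found. The alternatives were the replicate block, median centring, quantile normalization, genes at or above the median level, the mean of all probesets, an intensity trend and leaving out each array.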

Additional observations from a re-analysis of the deposited data

How the results depend on the processing

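limma called 0 genes in each comparison under every alternative run, with 42 to 2636 genes at an unadjusted p under 0.05. The replicate block left the called counts at 0 and the medians at -0.21 for VPA, -0.15 for NaBu and -0.23 for VPA against NaBu, and changed no call. Outside the left-out arrays, 1 of the 27 marker differences changed sign, Pou3f1 in VPA against NaBu, at 0.013 with quantile normalization. That setting also put 7 of 9 markers below 0 in both sets for VPA, against 4, beside 30.4% of all genes, against 28.0%. Averaging both Zic5 probesets left 1 marker lower with VPA than with NaBu in both sets, against 2. It left 4 markers lower with NaBu than in untreated cells in both sets, against 5. With the probesets of every gene averaged, 28.6% and 23.1% of all genes were lower in both sets, in the same order. With genes below the median level left out, which keeps 7 of the 9 markers, the VPA median was -0.54. With 1 array left out and no block, so that part of the replicate difference enters, the medians ran from -0.46 to -0.07 for VPA, -0.26 to 0.062 for NaBu and -0.25 to 0.074 for VPA against NaBu. The markers that changed sign in these fits ranged as follows. For VPA they ran from -0.49 to 0.070 for Fgf5, -0.047 to 0.015 for Pou3f1, -0.012 to 0.16 for Sox3, -0.47 to 0.055 for Sall2 and -0.23 to 0.14 for Cdh2. For NaBu they ran from -0.45 to 0.49 for Fgf5, -0.31 to 0.14 for Otx2, -1.19 to 0.40 for Foxd3, -0.21 to 0.13 for Zic2, -0.10 to 0.068 for Pou3f1, -0.39 to 0.035 for Sox3 and -0.42 to 0.11 for Sall2. For VPA against NaBu they ran from -0.70 to 0.24 for Fgf5, -1.23 to 0.36 for Foxd3, -0.84 to 0.10 for Zic5, -0.084 to 0.080 for Pou3f1, -0.11 to 0.0006 for Sall2 and -0.072 to 0.30 for Cdh2. The lone array of a group was assumed to vary like the others. The cause was not tested.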

Other observations

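Family partners of the markers were also read. Of 21 listed paralogs and partners 20 were measured, with 9 below and 11 above 0 for VPA and 14 below and 6 above for NaBu, and none passed in limma. Of all genes, 47.0% were below 0 with VPA and 45.7% with NaBu. Sall1, a spalt factor like Sall2, had log2 values of 7.77 and 8.15 with VPA, 8.75 and 8.57 with NaBu and 8.97 and 8.47 in untreated cells. Its VPA difference was -0.77 (95% interval -1.29 to -0.25), with -1.21 in set 1 and -0.32 in set 2. Fgf4, the growth factor that drives ERK signalling in embryonic stem cells, stood at -0.86 with VPA (95% interval -1.65 to -0.07) and -0.17 with NaBu. Sox1, the SoxB1 factor of early neural plate, had 6.71 and 6.79 with VPA, 6.60 and 6.36 with NaBu and 7.05 and 6.79 in untreated cells. Its NaBu difference was -0.44 (95% interval -0.80 to -0.08), with -0.45 in set 1 and -0.43 in set 2. Foxd2 stood at 0.21 with VPA (95% interval -0.09 to 0.52) and at -0.24 with NaBu (95% interval -0.55 to 0.07). Fgf8, a growth factor of the primitive streak, stood at -0.25 with NaBu (95% interval -0.57 to 0.08).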
